A study of Prunus yedoensis with 90 samples.

Results

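Buds of 2 Yoshino cherry trees in Hokkaido, the northern site of the study, were collected on 7 September 2018 and compared with buds of the same 2 trees from 13 August 2018, 25 days earlier. These 4 libraries, 2 from September and 2 from August, were picked by their site, date and tissue labels out of 90 libraries in all. The trees are the cultivar Somei-yoshino (Prunus yedoensis), which is propagated by grafting, so that trees of the cultivar are copies of 1 clone. The libraries used beside them were Hokkaido buds of 9 other dates from June to April, Hokkaido leaves of the same trees and dates, buds from Tsukuba (5 September and later against 7 August) and buds from Fukuoka (29 August and later against 1 August). The labels name no applied treatment, and each group held 2 trees. The tree labelled replicate 1 and the tree labelled replicate 2 are called by these names at every site. The labels do not say how many buds, or whether flower or leaf buds, went into a library.

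In cherry, flower buds are initiated in summer inside buds that formed in the leaf axils, and these buds stop growing and become dormant in autumn. Shortening days, falling temperatures or both drive this change in temperate trees, and a long period of cold in winter is needed before the buds can open in spring. The August to September interval at the northern site therefore covers late summer, when leaves are still on the tree and flower organs are forming in flower buds. Somei-yoshino flowers each spring before its leaves unfold.

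Levels are given as TPM, a measure of transcript abundance that takes account of gene length and of the library total. Changes are September minus August on the log2(TPM + 1) scale, on which 1 stands for 2-fold; the added 1 shrinks the change of genes at low TPM. Genes with a change of 1 or more in either direction and a limma adjusted p below 0.05 were called. The spread behind the test came from all 33 pairs of trees that shared a site and a date. The files give gene IDs without gene names, so no gene could be assigned a role, and genes are described by their levels over dates, sites and tissues.

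The 4 libraries matched their tissue label: across 40378 genes, they correlated with the mean bud profile of the other sites with r between 0.915 and 0.970, and with the mean leaf profile with r between 0.594 and 0.661. The 2 trees were less alike in September than in August. Their median absolute difference was 0.254 on the log2 scale in September, which ranked 3 among the 33 bud pairs from the widest, and 0.167 in August (the range over all bud pairs was 0.139 to 0.277). Numbers in the library labels ran on within each tree from August to September but formed separate series in the 2 trees. This series and the tree cannot be told apart, whereas both dates stood in each series. Later the numbers jumped before 8 November in Hokkaido replicate 1 and before 7 December in Tsukuba replicate 1. In Fukuoka they jumped before 22 November in replicate 2 and before 19 December in replicate 1. Comparisons across those dates cross the jump in that tree.

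Buds changed broadly between the 2 dates. Of 40161 genes tested, 2169 were called, a share of 5.4%, and of these 908 rose (2.26% of all genes) and 1261 fell (3.14%) by 7 September. Falls outnumbered rises at 4-fold and 8-fold. By at least 4-fold, 258 genes fell and 102 rose, and by at least 8-fold, 56 fell and 8 rose. The few largest changes were not mostly falls: by at least 32-fold 2 fell and 2 rose, and by at least 64-fold 1 fell and 2 rose. The median change was 1.3 among the risen genes (median SE 0.307) and -1.43 among the fallen genes (median SE 0.342), beside 0.07 over all genes. Counted by adjusted p alone, the split turned, with 4061 higher and 2806 lower genes. The split of the 2-fold calls also depended on the tree and the pseudocount: without Hokkaido replicate 2, 1638 genes were higher and 1501 lower, without Hokkaido replicate 1, 388 were higher and 527 lower, and with a pseudocount of 0.1, 1184 were higher and 1229 lower.

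The called genes lay at ordinary levels. Median TPM over the 66 bud libraries was 9.83 for the risen genes and 8.17 for the fallen genes, against 8.77 for all genes tested, and 74 risen and 99 fallen genes averaged at least 100 TPM. The risen genes together held 5.70% of all TPM in replicate 1 and 4.83% in replicate 2 in September, against 1.62% and 1.73% in August. The fallen genes together held 2.23% in replicate 1 and 3.80% in replicate 2 in September, against 8.89% and 8.93% in August. The genes were chosen for their difference between these 4 libraries, so the gap between the dates in these sums is a description. In both sums replicate 1 lay farther from its August value than replicate 2. Of the 908 risen genes, 13 had at least 1 TPM in both September libraries and were listed at 0 in both August libraries. The converse held in 14 of the 1261 fallen genes. Genes that were not called were not counted, and a listed 0 can be a failed estimate, so these counts are a description.

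The 4 genes named here are, in each direction, the called gene with the largest log2 change and the one with the largest change in TPM among genes of at least 5 TPM on average whose 2 trees moved the same way. CYE_r3.1SPE0_g033290.1 had 118 TPM in replicate 1 and 257 TPM in replicate 2 in September, against 1.33 and 0.132 TPM in August. Both September libraries were far above both August libraries, and the rise was 6.75 (SE 0.648, limma adjusted p = 2.94e-09). The gene was listed at 0 in both July libraries and had 250 and 155 TPM in October, 3611 and 3690 TPM in January and 4.21 and 5.94 TPM in April. Its level on 7 September lay between those of July and January.

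CYE_r3.1SPE0_g020150.1 had 3145 and 3257 TPM in September, against 329 and 617 TPM in August. The 2 trees were close in September, and the rise was 2.83 (SE 0.444, limma adjusted p = 2.47e-05). Its level was 10001 and 10831 TPM in October, 19865 and 17249 TPM in November and 21692 and 21288 TPM in December, its highest in both trees, and 14649 and 14537 TPM in January. It alone took 1 in 100 of all TPM or more in each of those libraries.

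CYE_r3.1SPE2_g027840.1 had 1.44 and 0.746 TPM in September, against 450 and 68.5 TPM in August. The 2 August libraries differed widely, yet both were far above both September libraries, and the fall was -6.42 (SE 0.683, limma adjusted p = 2.82e-08). In July the gene had 0.276 and 4.58 TPM, below both August values. CYE_r3.1SPA7_g026810.1 had 1168 and 1873 TPM in September, against 4140 and 4703 TPM in August, and fell by 1.58 on the log2 scale (SE 0.258, limma adjusted p = 4.54e-05). It fell on to 728 and 947 TPM in October and stood at 282 and 268 TPM in January. Other IDs followed courses close to those of the named genes at like levels, with means over the bud libraries of 810 TPM beside 823 TPM for CYE_r3.1SPE0_g033290.1 and 1541 TPM beside 1592 TPM for CYE_r3.1SPA7_g026810.1. How reads were divided between such IDs is unknown, so the printed levels of the named genes carry this doubt. With the spread of the 4 libraries alone, the calls of CYE_r3.1SPE0_g020150.1, CYE_r3.1SPE2_g027840.1 and CYE_r3.1SPA7_g026810.1 were lost (adjusted p = 0.0593, 0.0673 and 0.0884), and 114 genes were called in all, an alternative chosen after seeing the data.

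**Figure D1:**
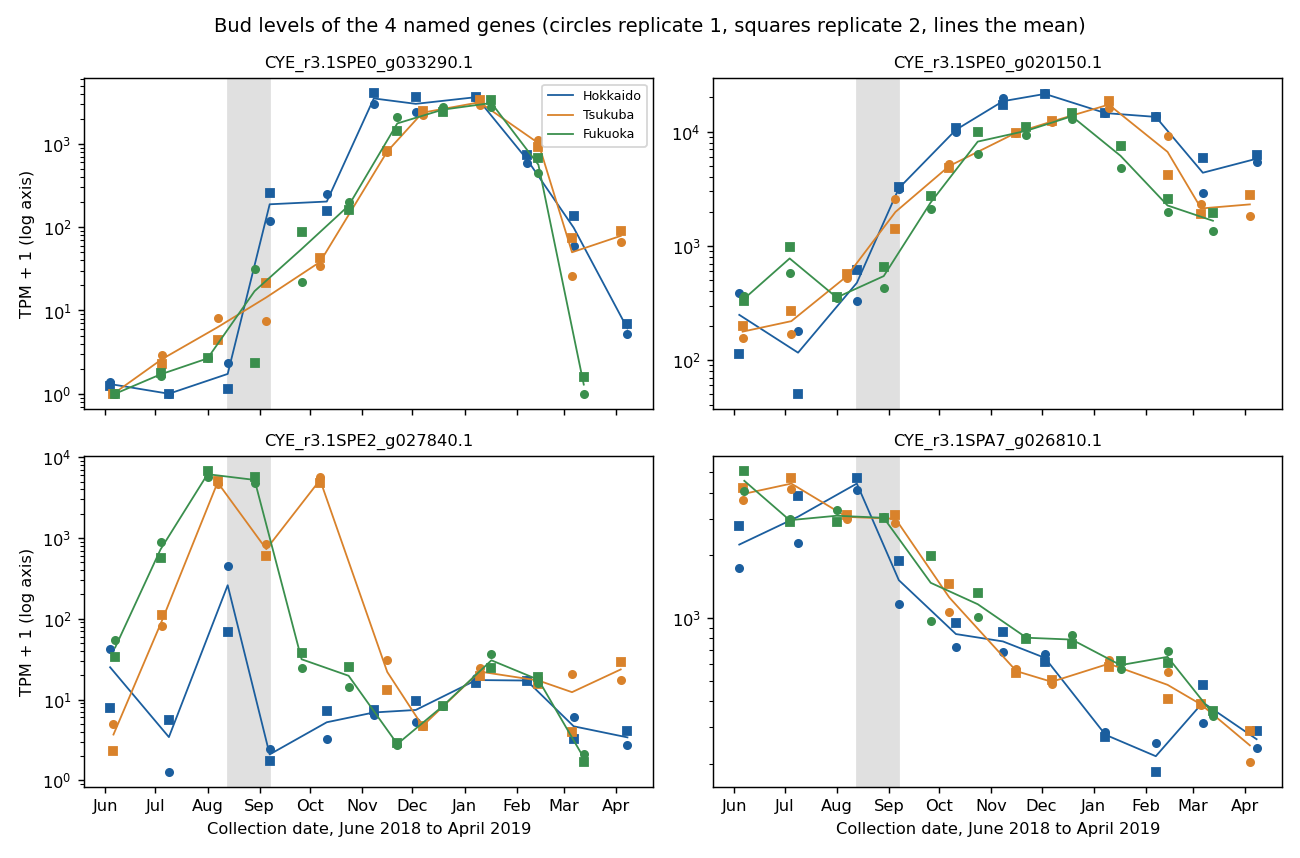
Bud levels of the 4 named genes as TPM + 1 on a log axis against the collection date, with circles for replicate 1, squares for replicate 2 and a line through the mean of each site; the grey band runs from 13 August to 7 September. In Hokkaido CYE_r3.1SPE0_g033290.1 had 118 and 257 TPM on 7 September, against 1.33 and 0.132 TPM on 13 August, and CYE_r3.1SPE2_g027840.1 had 1.44 and 0.746 TPM, against 450 and 68.5 TPM.

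The 2 trees moved together in direction and apart in size. All 908 risen and all 1261 fallen genes had the same sign in both trees, which the calling rule favours. The 2 September values lay above both August values in 906 of the risen genes, and below both in 1256 of the fallen genes, beside 33.2% and 23.0% of all genes tested. The calling rule favours this separation too, so these counts are a description. The median change of the risen genes was 1.55 in replicate 1 and 1.14 in replicate 2, and that of the fallen genes was -1.72 in replicate 1 and -1.23 in replicate 2. The change was larger in replicate 1 in 668 of 908 risen genes (73.6%) and in 936 of 1261 fallen genes (74.2%). Over all genes tested, 4840 changed by at least 2-fold in replicate 1 and 2517 in replicate 2, and the changes in the 2 trees correlated with r = 0.58 across 40161 genes, which are not independent replicates.

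**Figure D2:**
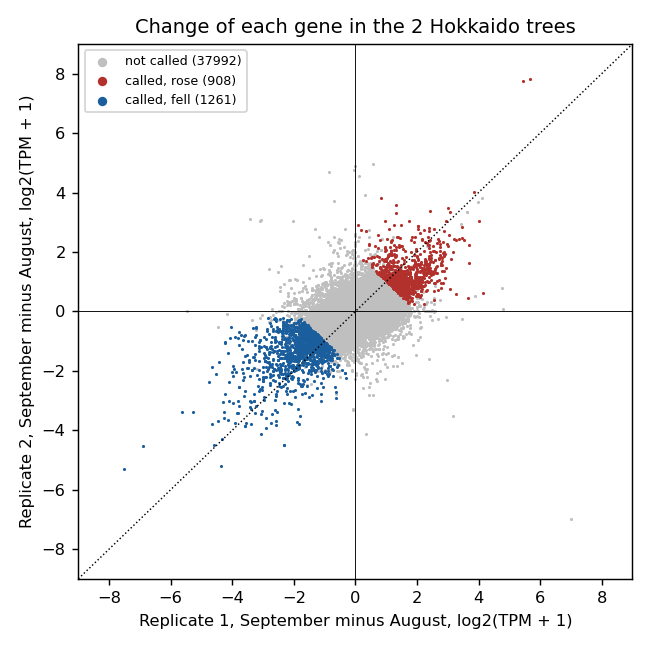
Change of each of the 40161 genes tested, September minus August on the log2(TPM + 1) scale, in replicate 1 (x axis) and replicate 2 (y axis), with called genes in red (908 rose) and blue (1261 fell) and a dotted line where both changes are equal. Most called points lie on the replicate 1 side of that line: the change was larger in replicate 1 in 73.6% of the risen and 74.2% of the fallen genes.

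The number of calls moved with the tree left out. Without Hokkaido replicate 1, 915 genes were called, and without Hokkaido replicate 2, 3139 genes were called. In the next interval, 11 October minus 7 September, the order of the trees turned, with 3041 genes at least 2-fold changed in replicate 1 and 4242 in replicate 2. Genes that had moved in 1 tree only by 7 September were followed in libraries not used to choose them, those of October and July. There were 1139 genes that were at least 2-fold higher in replicate 1 and had changed by less than 0.5 on the log2 scale in replicate 2. In October minus July, their median was 0.36 in replicate 1 and 0.55 in replicate 2, beside 0.09 and 0.01 over all genes. The 707 genes that were at least 2-fold lower in replicate 1 with as small a change in replicate 2 had medians of -0.60 in replicate 1 and -1.12 in replicate 2. In both sets, the replicate that had moved less by 7 September had the median farther from July in October. The converse sets were smaller, with 254 genes higher and 298 genes lower in replicate 2 only, and their October minus July medians were 0.42 and -0.28 in replicate 1 and 0.26 and -0.08 in replicate 2. The 513 genes at least 2-fold higher in both trees had medians of 1.11 in replicate 1 and 1.56 in replicate 2. The 837 genes at least 2-fold lower in both had medians of -1.11 and -1.66. A median farther from July in replicate 2 was thus not particular to genes that had moved in replicate 1 only. All these sets were chosen after their values were seen and carry no test.

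Outside the 2 dates that chose them, the risen genes stood higher after September than before August, and the fallen genes lower. The median level of the risen genes, on the log2(TPM + 1) scale, was 4.05 in replicate 1 and 3.56 in replicate 2 on 7 September, against 2.39 and 2.33 on 13 August. It had been 2.08 and 2.06 in June and 2.42 and 2.25 in July, and it stood between 3.17 and 3.87 in every later Hokkaido library from October to April. The median of the fallen genes was 2.11 in replicate 1 and 2.79 in replicate 2 on 7 September, against 4.02 and 4.24 on 13 August. It had been 3.93 and 4.29 in June and 3.56 and 3.80 in July. It was 2.33 and 1.96 in October, reached its lowest values, 1.46 and 1.45, in January, and was 2.20 and 2.15 in April. No later Hokkaido library brought either median back to its August level.

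**Figure D3:**
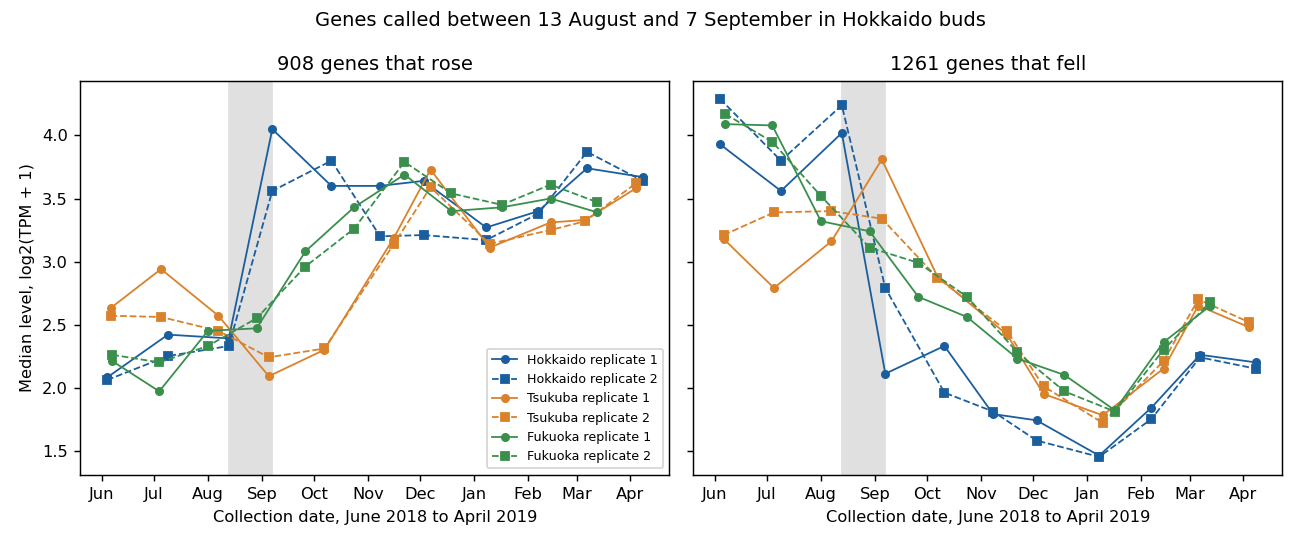
Median level on the log2(TPM + 1) scale of the 908 risen genes (left) and the 1261 fallen genes (right) in each bud library against the collection date, by site and replicate; the grey band runs from 13 August to 7 September, the 2 dates that chose the genes in Hokkaido. At Tsukuba the median of the risen genes was 2.09 and 2.24 on 5 September and 3.73 and 3.59 on 7 December.

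The year's highs of the risen genes were spread over the dates after August. By the mean of the 2 trees over 11 Hokkaido dates, 191 risen genes (21.0%) were highest in September, 174 (19.2%) in April and 107 (11.8%) in November, beside 4.48%, 11.6% and 3.51% of all genes tested. Only 13 (1.43%) were highest in June and 5 (0.551%) in July, beside 11.0% and 8.02% of all genes tested. Among the fallen genes, 596 (47.3%) were highest in August and 450 (35.7%) in June, beside 8.13% and 11.0% of all genes tested. Their year's low came most often in January, in 351 genes (27.8%), beside 20.0% of all genes. The August and September shares follow in part from the choice of the genes and are given as a description.

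Buds also changed in the neighbouring intervals. Hokkaido buds gave 1121 calls for 9 July minus 4 June (2.79%), 1634 for 13 August minus 9 July (4.07%) and 1744 for 11 October minus 7 September (4.34%), over 35, 35 and 34 days, against 2169 over the 25 days studied here. The order of these counts depended on the tree. Without Hokkaido replicate 1 they were 361, 498 and 2625 against 915, and without Hokkaido replicate 2 they were 753, 1317 and 970 against 3139. Whether the intervals differ in their number of changed genes was not tested.

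The changes were met again in Hokkaido libraries that share no sample with the comparison, though they come from the same 2 trees. In October minus July, 495 of 908 risen genes (54.5%) were called higher and 18 lower, where 6.10% of all genes were called higher and 7.91% lower. Of the 1261 fallen genes, 760 (60.3%) were called lower in October minus July and 21 higher. The median changes were 1.16 for the risen genes and -1.32 for the fallen genes, beside 0.05 over all genes. The shared calls were 20.2% of all genes called higher in that comparison. Both trees carried this: the risen genes had medians of 0.98 in replicate 1 and 1.34 in replicate 2, and the fallen genes had medians of -1.06 and -1.61.

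In spring, neither list was simply undone. In 7 March minus 8 January, 307 risen genes (33.8%) were called higher and 159 (17.5%) lower, where 17.0% of all genes were called higher and 5.97% lower. Of the fallen genes, 385 (30.5%) were called higher again and 83 (6.58%) lower. The medians were 0.41 for the risen and 0.45 for the fallen genes, beside 0.23 over all genes. Both lists thus moved upward on balance from January to March, and so did all genes tested. These shares moved with the tree left out. Without Hokkaido replicate 1, 9.07% of all genes called in September minus August were called in the same direction in March minus January and 33.0% in the opposite one, against 27.2% and 12.8% without Hokkaido replicate 2.

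At Tsukuba, the middle site, buds were compared between 5 September and 7 August, an interval that lies close to the Hokkaido dates and spans 29 days. There, 1092 genes were called (2.72%), 345 higher and 747 lower. Of the genes that rose in Hokkaido, 30 (3.30%) were called higher in Tsukuba and 82 (9.03%) lower, where 0.859% of all genes were called higher and 1.86% lower. Of those that fell in Hokkaido, 70 (5.55%) were called higher and 32 (2.54%) lower. In both lists more genes were called in the direction opposite to Hokkaido than in the same one. The median change in Tsukuba was -0.27 for the Hokkaido risen genes and 0.19 for the fallen genes, beside -0.12 over all genes.

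That opposite movement rested largely on 1 tree at each site. In Tsukuba replicate 1 the Hokkaido fallen genes had a median change of 0.41, and in Tsukuba replicate 2 of -0.04. The risen genes had medians of -0.35 in Tsukuba replicate 1 and -0.16 in replicate 2, against medians over all genes of -0.10 and -0.14. Without Tsukuba replicate 1, only 38 genes were called in Tsukuba, and the share of all Hokkaido called genes that moved the opposite way was 0.0472%, against 0.472% the same way. Without Hokkaido replicate 1, 6.01% were called in the same direction at Tsukuba and 3.5% in the opposite one, so that the order turned. With the spread of the June to October collections alone, the order also turned, to 1.38% in the same direction and 0.691% in the opposite one. In all these settings few of the Hokkaido genes were called in the same direction at Tsukuba by 5 September. Few genes of any kind were called there. With all trees, 3.30% of the risen genes were called higher and 2.54% of the fallen genes lower. Both shares lay above those of all genes, 0.859% and 1.86%, as did the shares called in the opposite direction.

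A direct test set the 2 changes against each other. The Hokkaido change differed from the Tsukuba change in 4104 genes (10.2%), with 2508 higher in Hokkaido and 1596 lower. The median difference over all genes was 0.20, and this split moved with the scaling. The share of higher calls was 61.1% with no further scaling, 48.2% with quantile normalization and 42.6% with median scaling. The count was 1279 without Hokkaido replicate 1, 1451 without Tsukuba replicate 1 and 5678 without Hokkaido replicate 2. In levels, Hokkaido buds differed from Tsukuba buds in 8322 genes (20.7%) in September and in 3177 genes (7.91%) in August, and the median difference over all genes was 0.33 in September and 0.14 in August. The higher share of those calls was 68.7% in September and 59.7% in August, and 40.2% and 45.1% after median scaling, so no direction of these level differences held across scalings.

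The largest difference upward was again CYE_r3.1SPE0_g033290.1, which had 6.49 and 20.3 TPM in Tsukuba on 5 September, against 7.15 and 3.44 TPM there on 7 August. Its Tsukuba values overlapped between the dates (change 1.07, SE 0.648, limma adjusted p = 0.31), and the Hokkaido change exceeded the Tsukuba change by 5.69 (SE 0.916, limma adjusted p = 7.02e-05). The largest difference downward was CYE_r3.1SPA0_g020150.1. In Hokkaido it had 0.152 and 2.07 TPM in September, against 56.1 and 31.4 TPM in August. In Tsukuba it had 85.9 and 11.3 TPM in September, against 9.02 and 6.87 TPM in August. Both Hokkaido September values lay below both August values, while in Tsukuba replicate 1 was far above and replicate 2 slightly above both August values. The difference of the changes was -6.40 (SE 0.701, limma adjusted p = 1.78e-07). It was listed at 0 in both trees in Hokkaido in January and in Tsukuba in December.

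For CYE_r3.1SPE2_g027840.1, Hokkaido buds had 450 and 68.5 TPM on 13 August, against 4696 and 5052 TPM in Tsukuba buds on 7 August. In Tsukuba the gene had 848 and 606 TPM on 5 September, below both August values, and fell by 2.76 on the log2 scale (SE 0.683, limma adjusted p = 0.0118). This was a dip, since it had 5745 and 4730 TPM there on 7 October and 29.7 and 12.2 TPM on 16 November. CYE_r3.1SPA7_g026810.1 had 2856 and 3135 TPM in Tsukuba in September, against 2998 and 3119 TPM in August, with overlapping values and a change of -0.03 (SE 0.258, limma adjusted p = 0.96).

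By December, 54.5% of the Hokkaido risen genes and 55.7% of the fallen genes were called in the same direction at Tsukuba. Against 7 August, 64 of the Hokkaido risen genes (7.05%) were called higher on 7 October, 381 (42.0%) on 16 November and 495 (54.5%) on 7 December, where 1.89%, 8.13% and 11.5% of all genes were called higher. Of the fallen genes, 170 (13.5%) were called lower on 7 October, 498 (39.5%) on 16 November and 702 (55.7%) on 7 December, where 4.17%, 6.79% and 9.68% of all genes were. Calls in the opposite direction were also made among the Hokkaido risen genes, in 130 genes (14.3%) on 7 October, 119 (13.1%) on 16 November and 98 (10.8%) on 7 December, beside 4.17%, 6.79% and 9.68% of all genes called lower. Among the fallen genes they were made in 62, 21 and 21 genes on these dates. By 7 December the medians were 1.2 in replicate 1 and 1.26 in replicate 2 for the risen genes and -1.16 and -1.28 for the fallen genes. Both Tsukuba trees carried the December change to a like extent.

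**Figure D4:**
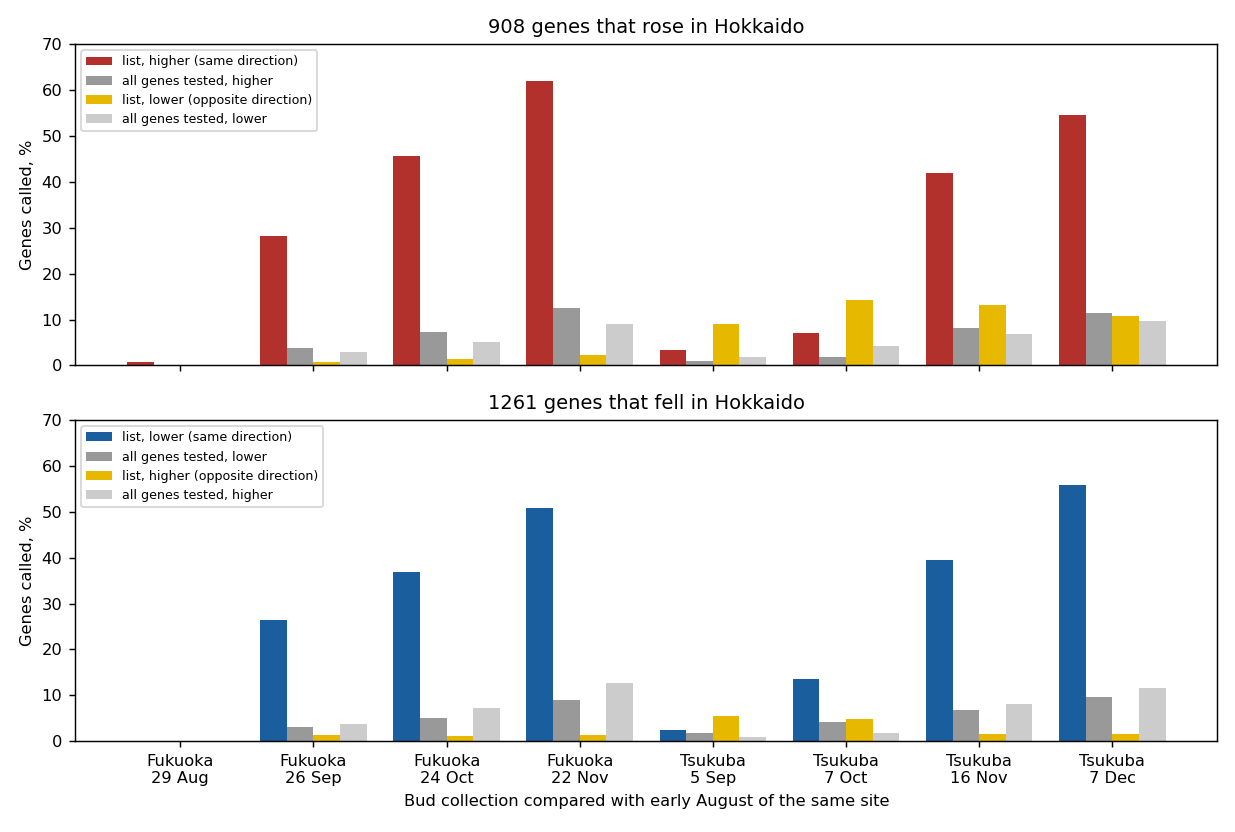
Share, in percent, of the 908 genes that rose (top) and the 1261 genes that fell (bottom) in Hokkaido that were called in Fukuoka buds against 1 August and in Tsukuba buds against 7 August, with coloured bars for the same direction, yellow bars for the opposite direction and grey bars for all 40161 genes tested. The share in the same direction was 54.5% and 55.7% at Tsukuba on 7 December and 61.9% and 50.7% at Fukuoka on 22 November.

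Fukuoka, the southern site, had a quiet August. Buds of 29 August differed from those of 1 August in 32 genes (0.0797%, 0.0523% higher and 0.0274% lower), with 2309 genes at an unadjusted p under 0.05. Of the Hokkaido risen genes, 7 were called higher and 1 lower, and of the fallen genes 0 were called higher and 1 lower. The medians were 0.14 for the risen and -0.20 for the fallen genes, beside -0.02 over all genes. The Hokkaido change differed from this Fukuoka change in 935 genes (2.33%), 462 higher in Hokkaido and 473 lower. The share of higher calls was 49.4% with no further scaling, 39.9% with quantile normalization and 38.1% with median scaling, and the count was 295 without Hokkaido replicate 1, 356 without Fukuoka replicate 1, 339 without Fukuoka replicate 2 and 1568 without Hokkaido replicate 2. With the spread of the June to October collections alone, it was 314.

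In this comparison CYE_r3.1SPE0_g033290.1 had 30.8 and 1.35 TPM in Fukuoka on 29 August, against 1.65 and 1.66 TPM on 1 August. Its Hokkaido change was larger by 5.05 (SE 0.916, limma adjusted p = 0.000843), a call that ended without Hokkaido replicate 2 (adjusted p = 0.0570) or Fukuoka replicate 2 (adjusted p = 0.0598). The largest difference downward was CYE_r3.1SPA0_g176610.1, which was listed at 0 in both Hokkaido September libraries, against 19.8 and 35.6 TPM in August. It was also listed at 0 in both Hokkaido July libraries and in 1 of the 2 Fukuoka libraries of 1 August. Its level returned to 27.6 and 35.3 TPM in Hokkaido in October. An exact 0 beside such levels can be a failed estimate, the call was lost without either Hokkaido tree (adjusted p = 0.22 and 0.136), and no fold is given.

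The next Fukuoka interval, 26 September minus 29 August, gave 2627 calls (6.54%), 1671 higher and 956 lower. In that interval 196 Hokkaido risen genes (21.6%) were called higher and 13 lower, where 4.16% of all genes were called higher and 2.38% lower. Of the Hokkaido fallen genes, 238 (18.9%) were called lower and 44 higher. The medians were 0.47 for the risen and -0.33 for the fallen genes, beside 0.11 over all genes. In the 2 Fukuoka trees the risen genes had medians of 0.54 in replicate 1 and 0.48 in replicate 2, and the fallen genes had medians of -0.52 and -0.16.

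The Hokkaido change still differed from this later Fukuoka change in 1795 genes (4.47%), 794 higher in Hokkaido and 1001 lower. The share of higher calls was 44.2% with no further scaling, 54.0% with quantile normalization and 54.6% with median scaling, and the count was 985 without Hokkaido replicate 1, 1127 without Fukuoka replicate 1 and 883 with the spread of the June to October collections alone. The largest difference upward was CYE_r3.1SPA3_g000730.1, which had 1.45 and 2.19 TPM in Fukuoka on 26 September, against 289 and 462 TPM on 29 August. In Hokkaido it was near 0 throughout, listed at 0 in both September libraries, against 1.25 and 0.276 TPM in August. The difference of the changes was 6.28 (SE 0.320, limma adjusted p = 1.34e-16). The largest difference downward was CYE_r3.1SPA1_g008420.1, which had 2493 and 22.6 TPM in Fukuoka on 26 September, against 1.40 and 0.303 TPM on 29 August. In Hokkaido it was listed at 0 in both September libraries, against 0 and 0.816 TPM in August. The difference was -7.53 (SE 1.61, limma adjusted p = 0.00262) and was lost without Fukuoka replicate 1 (adjusted p = 0.136) or Hokkaido replicate 2 (adjusted p = 0.0646).

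Against 1 August, the Hokkaido genes moved the same way in growing number at Fukuoka. Of the risen genes, 255 (28.1%) were called higher on 26 September, 414 (45.6%) on 24 October and 562 (61.9%) on 22 November, where 3.72%, 7.20% and 12.6% of all genes were. Of the fallen genes, 334 (26.5%), 465 (36.9%) and 639 (50.7%) were called lower on these dates, where 3.02%, 5.14% and 8.95% of all genes were. By 22 November the medians were 1.37 and 1.44 in the 2 trees for the risen genes and -0.996 and -1.19 for the fallen genes. Calls in the opposite direction stayed between 7 and 21 genes in either list on these 3 dates.

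The medians of the risen genes at the other 2 sites came into the range of the later Hokkaido libraries by late autumn. On the log2(TPM + 1) scale the Hokkaido trees had 4.05 and 3.56 on 7 September. The Tsukuba trees had 2.09 and 2.24 on 5 September, 2.30 and 2.31 on 7 October, 3.19 and 3.14 on 16 November and 3.73 and 3.59 on 7 December. The Fukuoka trees had 2.47 and 2.55 on 29 August, 3.08 and 2.96 on 26 September, 3.43 and 3.26 on 24 October and 3.69 and 3.79 on 22 November. The genes were chosen by their Hokkaido levels, so the early Hokkaido rise in these medians is a description, and the later levels at the other sites are not part of the choice.

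Some of the named genes were also called at the other sites. CYE_r3.1SPE0_g020150.1 had 2562 and 1403 TPM in Tsukuba on 5 September, against 517 and 562 TPM on 7 August, a called rise of 1.81 (SE 0.444, limma adjusted p = 0.0115). In Fukuoka it had 2097 and 2709 TPM on 26 September, against 426 and 658 TPM on 29 August, a rise of 2.17 (SE 0.444, limma adjusted p = 0.000497). CYE_r3.1SPE2_g027840.1 had 23.9 and 37.1 TPM in Fukuoka on 26 September, against 4765 and 5708 TPM on 29 August, and fell by 7.40 on the log2 scale (SE 0.683, limma adjusted p = 2.13e-10). CYE_r3.1SPE0_g033290.1 had 21.3 and 86.2 TPM there, against 30.8 and 1.35 TPM. Its values overlapped between these dates, and its rise of 2.35 was called (SE 0.648, limma adjusted p = 0.00804). CYE_r3.1SPA7_g026810.1 had 967 and 1986 TPM there, against 3046 and 3010 TPM. It fell by 1.13 on the log2 scale (SE 0.258, limma adjusted p = 0.00163).

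Leaves of the same 2 trees on the same 2 dates gave 1323 calls (3.28%), 732 higher and 591 lower in September. Extraction differed between the tissues by the labels' protocol, but not between dates of 1 tissue. Of 885 bud risen genes tested in both tissues, 139 (15.7%) were called higher in leaves and 6 lower, where 1.81% of all genes were called higher and 1.46% lower. Of 1243 bud fallen genes tested, 110 (8.85%) were called lower in leaves and 12 higher. The shared calls were 19.0% of all genes called higher in leaves. The median change in leaves was 0.19 for the bud risen genes and -0.20 for the bud fallen genes, beside 0.03 over all genes.

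In leaves the 2 trees were unequal for the bud risen genes and close for the bud fallen genes. The bud risen genes had a median change in leaves of 0.31 in replicate 1 and 0.04 in replicate 2, and the bud fallen genes had medians of -0.17 and -0.20. On the log2 scale the median level of the bud risen genes in leaves was 1.48 in replicate 1 and 0.897 in replicate 2 in September, against 0.785 and 0.817 in August. Without Hokkaido replicate 2 in both tissues, 6.95% of the genes called in buds were called in the same direction in leaves, and without Hokkaido replicate 1, 16.6%.

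**Figure D5:**
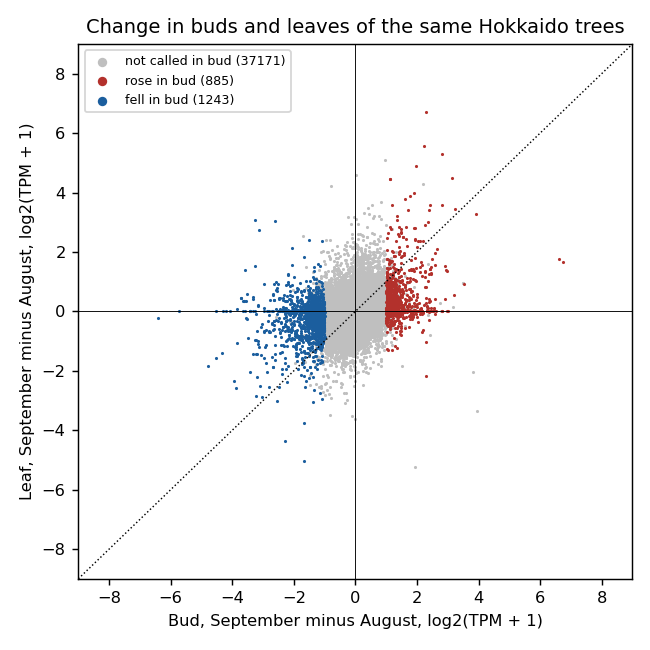
Change in leaves (y axis) against change in buds (x axis) of the same Hokkaido trees, September minus August on the log2(TPM + 1) scale as the mean of the 2 trees, for genes tested in both tissues, with genes that rose in buds in red (885) and fell in blue (1243). Most coloured points lie nearer to 0 on the leaf axis than on the bud axis: the median leaf change was 0.19 for the bud risen and -0.20 for the bud fallen genes.

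The bud change differed from the leaf change in 1151 genes (2.85%), 453 higher in buds and 698 lower. The count was 246 without Hokkaido replicate 1, and 463 and 449 with the spread of the Hokkaido libraries or of the June to October collections alone. CYE_r3.1SPE0_g033290.1 had 2.61 and 1.76 TPM in leaves in September and was listed at 0 in both leaf libraries in August, and its bud change was larger by 5.10 (SE 0.831, limma adjusted p = 0.000143). This call ended with a pseudocount of 0.1 (adjusted p = 0.136) and without Hokkaido replicate 2 (adjusted p = 0.117). The largest difference downward was CYE_r3.1SPE0_g176420.1. In buds it had 2.33 and 4.76 TPM in September, against 24.1 and 68.0 TPM in August. In leaves it had 14.8 and 8.04 TPM in September, against 0.404 and 0.419 TPM in August. The bud and leaf values moved in opposite directions in both trees, and the difference of the changes was -6.33 (SE 0.951, limma adjusted p = 3.71e-05).

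CYE_r3.1SPE0_g020150.1, the gene of the largest TPM rise in buds, also rose in leaves, with 331 and 4.53 TPM in September, against 0.189 and 0 TPM in August (change 5.30, SE 1.14, limma adjusted p = 0.00116). The 2 leaf libraries of September differed widely from each other, and both were above the August libraries. CYE_r3.1SPA7_g026810.1 had 2320 and 2365 TPM in leaves in September, against 2990 and 2784 TPM in August, and its change of -0.30 missed the threshold (SE 0.268, limma adjusted p = 0.59).

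The gene IDs themselves carry 2 letter groups, SPA and SPE, which the sources used here do not explain. The called genes were spread over both, with 437 of 20923 SPA genes (2.09%) and 471 of 19238 SPE genes (2.45%) that rose, and 663 SPA genes (3.17%) and 598 SPE genes (3.11%) that fell. Among the 18 subgroups given by the digit that follows, SPE4 (3.61%) and SPA4 (3.42%) had the highest shares of risen genes, and SPA0 (1.67%) the lowest. Genes with neighbouring ID numbers, 10 apart, were called together more often than genes at large: 95 of 700 risen genes with a tested neighbour (13.6%) had one that also rose, beside 2.94% of all genes with a tested neighbour, and 119 of 1039 fallen genes (11.5%) had one that also fell, beside 4.53%. The longest runs of neighbouring IDs called the same way held 4 risen and 3 fallen genes. Nothing in the labels or files says whether ID numbers follow position in the genome.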

How the data were processed

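RNA sequencing libraries of buds and leaves were analysed from the TPM values that the authors deposited for 95076 gene IDs in 90 libraries. Tools listed without a role in the submitters' processing notes are StringTie 1.3.5, STAR 1.5.2 and fastp 0.20.0. Neither the genome build nor the annotation is given in the sources used, and neither is the counting of reads that near-identical gene copies share, which leaves the levels of such copies, named genes included, uncertain. TPM keeps no sequencing depth, so the depth is unknown and no counting interval is given. The files do not pair IDs with gene names, so the planned gene lists and tissue markers could not be used, and the tissue was checked by whole profiles. The number of columns of per-sample values without a sample was 0.

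Linear models were fitted to log2(TPM + 1) in R 4.3.3 by limma (version 3.58.1), with 1 mean per site and date over the 66 bud libraries (40161 genes whose TPM averaged 1 or more, 33 residual degrees of freedom) or per site, date and tissue over all 90 libraries (40378 genes, 45 residual degrees of freedom). The eBayes options trend and robust were off, and p-values were adjusted by the Benjamini-Hochberg method over all genes tested. Differences between sites and tissues were tested as contrasts of changes. One spread per gene served every comparison, so genes of small spread are called more readily in each of them, and shares are printed beside those of all genes in both directions. Tables were read with data.table (version 1.17.8) and plots drawn with matplotlib 3.10.9 in Python 3.11.15. Samples were grouped by site, date and tissue in the labels. P-values measure the spread between trees of 1 clone, which may include technical variation.

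The dates compared, the rules and the lists were chosen with earlier results of these data known. In each comparison the named genes had a mean TPM of at least 5, were called, and moved the same way in both trees (or in all pairs of trees of the 2 groups compared). They were the largest by log2 change in each direction, and for the main comparison also the largest by TPM change. A replicate number stands for 1 tree on all dates by the labels, and so pairs the libraries. As a check, the difference between the 2 Hokkaido trees correlated across genes between dates with a median r of 0.0892 over 55 pairs of dates, and with r = 0.0977 between August and September. In simulated data for September minus August with 39186 genes, changes of 1.5, 2 and 3 on the log2 scale were recovered in 90.0%, 96.5% and 100.0% of 200 genes each, with 16 false calls among 38586 unchanged genes. Changes were put only into genes averaging about 5 TPM or more, and each gene had the same normal spread on all dates. The simulation thus cannot show how calls behave where the spread differs between dates, as it did between August and September. Alternatives covered the pseudocount, the filter, scaling, the eBayes options, a tree block, the libraries that give the spread and the omission of each tree.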

Additional observations from a re-analysis of the deposited data

Results flagged for a closer look

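The following results were singled out because the Hokkaido change from August to September differed, by a test of the difference itself in limma, from the change over a like interval in another site or tissue. The difference reached the threshold in 4104 genes against Tsukuba buds (5 September minus 7 August), in 935 genes against Fukuoka buds (29 August minus 1 August), in 1795 genes against Fukuoka buds (26 September minus 29 August) and in 1151 genes against leaves of the same trees. The collection dates differ between the sites, so date and site cannot be told apart.

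Among single genes, CYE_r3.1SPE0_g033290.1 changed more in Hokkaido buds by 5.69 than in Tsukuba buds, by 5.05 than in Fukuoka buds in August and by 5.10 than in Hokkaido leaves, all on the log2(TPM + 1) scale. CYE_r3.1SPA0_g020150.1 changed by -6.40 against Tsukuba, with a fall in Hokkaido and a rise in Tsukuba. CYE_r3.1SPE0_g176420.1 changed by -6.33 in buds against leaves, with a fall in buds and a rise in leaves. CYE_r3.1SPA3_g000730.1 differed by 6.28 and CYE_r3.1SPA1_g008420.1 by -7.53 from the Fukuoka interval that ended on 26 September, where both were near 0 in Hokkaido and the change lay in Fukuoka. CYE_r3.1SPA0_g176610.1 had a fitted difference of -7.18 from the Fukuoka change in August, which rests on libraries where the gene is listed at 0.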

How the results depend on the processing

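Counts of called genes, shares of shared calls and the changes of named genes were recomputed under the alternatives that apply to each. List medians, TPM sums, fold sizes, peak dates and ID shares were not. No value of a named gene changed sign: 130 of 142 stayed on their side of the threshold and 12 lost their call. Of 358 counts and shares, 305 stayed within 1.5 times. With a pseudocount of 0.1, Fukuoka 29 August minus 1 August gave 17 genes, and the share called the opposite way in leaves was 1.28%. With a mean TPM of at least 5, October minus July gave 3544, July minus June 693 and Hokkaido minus Tsukuba in August 2083, and with no filter Fukuoka in August gave 51. With Hokkaido libraries only, July minus June gave 728 and bud minus leaf 463. With June to October collections only, the counts were 620 for July minus June, 1064 for August minus July, 274 for Tsukuba, 0 for Fukuoka in August in limma (2309 at an unadjusted p under 0.05 in the fit of all buds), 314 and 883 for the differences from the 2 Fukuoka intervals and 449 for bud minus leaf, and the Tsukuba shares were 1.38% (same direction) and 0.691% (opposite). The 4 libraries alone gave 114, an alternative chosen after seeing the data. The cause of these shifts was not tested, beyond the fewer libraries or genes in each. With the tree as a replicate block, 2247 genes were called in September minus August, and the block moved no count by over 1.5 times.

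Leaving out 1 tree at a time, with the remaining tree assumed to vary like the other groups, gave 915 to 3139 genes for September minus August, 361 to 753 for July minus June, 498 to 1317 for August minus July, 970 to 2625 for October minus September, 4379 to 5294 for October minus July and 8679 to 9081 for March minus January. It gave 38 to 810 for Tsukuba, 4 to 6 and 1729 to 2981 for the 2 Fukuoka intervals, 1058 to 1218 for leaves, 1279 to 5678, 295 to 1568 and 985 to 1696 for the differences from Tsukuba and Fukuoka, 246 to 770 for bud minus leaf, and 6618 to 10107 in September and 2381 to 3226 in August for Hokkaido minus Tsukuba levels. The share of the September minus August genes called in the same direction ran from 0.472% to 6.01% in Tsukuba in September, 5.43% to 13.0% in October, 33.9% to 49.8% in November and 47.4% to 69.2% in December. In Fukuoka it ran from 13.7% to 24.5% for 26 September minus 29 August, and against 1 August from 16.8% to 31.9% in September, 31.3% to 40.5% in October and 49.9% to 63.5% in November. It was 31.7% to 48.3% for October minus July, 9.07% to 27.2% for March minus January and 6.95% to 16.6% in leaves. The opposite shares were 0.0472% to 7.87%, 1.3% to 2.6%, 1.75% to 2.26%, 12.8% to 33.0% and 0.422% to 0.996% for Tsukuba in September, Fukuoka on 26 September minus 29 August, October minus July, March minus January and leaves.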
